A study of Mus musculus with 18 samples.

Results

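Transcripts of 9 genes that define receptor status and luminal identity in breast cancer were followed in EO771, a mouse mammary tumour line grown in culture. The 9 genes were taken by symbol: the ERBB receptor genes Erbb2, Erbb3 and Egfr, the adaptor gene Grb7, the ligand gene Areg, the hormone receptor genes Esr1 and Pgr, and the luminal transcription factor genes Gata3 and Foxa1. All 9 were among the 22612 lines of the EO771 table, and all 9 were found by Ensembl identifier among the 55401 lines of a second table of sorted endothelial cells, which served as a contrast. On GRCm38, Areg lies at chr5:91139599-91148432, Egfr at chr11:16752203-16918158, Erbb2 at chr11:98412470-98437716 and Grb7 at chr11:98446394-98455373, all on the plus strand.

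RNA sequencing covered 18 mouse libraries in 6 groups of 3. EO771 cells were given vehicle (DMSO in saline) or 12-HETE, a lipid made from arachidonic acid by the lipoxygenase ALOX12, so that the comparison asks what this lipid changes in the tumour cells. The endothelial libraries came from wild-type C57BL/6 female mice: endothelial cells of blood vessels (BECs) from the normal fat pad (BEC normal) or from EO771 tumours in that pad (BEC tumour), and high endothelial cells (HECs), sorted for the addressin PNAd, from inguinal lymph nodes of mice without tumours (HEC normal) or with tumours (HEC tumour, whose tissue is labelled lymph node metastases). EO771 is 1 line, and nothing in the labels says that its replicates were separate cultures or that the endothelial replicates were separate mice, so p-values measure the spread between these libraries only.

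ERBB receptors are tyrosine kinases that pair on binding ligands of the EGF family and signal through the RAS and MAPK kinases to immediate early genes and to feedback inhibitors. ERBB2 has no ligand of its own and works as a partner, ERBB3 binds neuregulins but has a weak kinase, and EGFR binds amphiregulin, the product of Areg. ESR1 and PGR are the receptors for oestrogen and progesterone, and FOXA1 and GATA3 open and bind chromatin with ESR1 in luminal mammary cells.

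Total counts ran from 17.3 M to 18.6 M in the EO771 libraries. A level of 3 counts, taken as the largest true value that a count of 0 allows, came to 0.173 CPM (counts scaled by the library total) in the shallowest. This limit covers counting error only. The 3 vehicle libraries were further apart than the 3 12-HETE libraries: the median coefficient of variation over 4488 well-expressed genes was 10.01% against 2.86%, and vehicle replicate 2 stood apart for several of the genes below. The EO771 libraries held the epithelial keratins Krt8 (12324 to 19051 counts) and Krt18 (19323 to 45482 counts) and the adhesion gene Epcam (252 to 459 counts), while the leukocyte gene Ptprc had at most 4 counts. The 8 leukocyte markers summed to 15.7 to 20.6 CPM with vehicle and to 18.2 to 19.4 CPM with 12-HETE, mostly from Cd68 at 225 to 304 counts, with Cd3e at 0 in all 6 libraries. Endothelial markers summed to 2.25 to 4.22 CPM with vehicle and to 0.591 to 0.811 CPM with 12-HETE, against 2205 CPM or more in every endothelial library. Pecam1 had 30 to 47 counts with vehicle and 10 to 13 with 12-HETE, Cdh5 had 9 to 18 and 0, and 2 of the 8 endothelial markers were at 0 in all EO771 libraries. The 7 fibroblast and pericyte markers summed to 390 to 614 CPM with vehicle and to 998 to 1037 CPM with 12-HETE, with Dcn and Pdgfra called higher and the other 5 not tested. The part of any of these in the results below was not tested.

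The promoter window of Areg is shown first, because Areg was the only one of the 9 genes that passed the test in EO771, followed by that of Egfr, the gene of its receptor, which did not differ. Each is the 250 bases before the annotated start, on the plus strand, from RefSeq (GRCm38.p6), at chr5:91139349-91139598 for Areg and chr11:16751953-16752202 for Egfr. Capitals mark the cyclic AMP response element TGACGTCA and the TATA motif TATAAA.

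Areg: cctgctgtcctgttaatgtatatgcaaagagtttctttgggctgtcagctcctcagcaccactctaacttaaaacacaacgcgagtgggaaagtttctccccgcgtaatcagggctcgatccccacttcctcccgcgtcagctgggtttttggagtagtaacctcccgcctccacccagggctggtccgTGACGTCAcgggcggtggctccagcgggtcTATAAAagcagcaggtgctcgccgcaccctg

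Egfr: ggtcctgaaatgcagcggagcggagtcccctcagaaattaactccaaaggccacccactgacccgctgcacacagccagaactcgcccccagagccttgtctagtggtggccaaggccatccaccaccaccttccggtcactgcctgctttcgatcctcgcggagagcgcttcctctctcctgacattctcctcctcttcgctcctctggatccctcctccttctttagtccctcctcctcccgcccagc

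In the Areg window the response element began 61 bases and the TATA motif 31 bases before the start. Of 32851 windows of the same length, searched on both strands, 1.55% held TGACGTCA and 12.4% held TATAAA. Neither motif was in the windows found for Erbb2, Egfr, Esr1, Gata3 and Foxa1. The AP-1 motif TGACTCA (4.46% of all windows) was in none of the 8 windows found, that of Areg among them. TATAAA was also in the window of Pgr, and no window was at hand for Erbb3 or Grb7. GGGCGG, which SP1 binds, was in the windows of Areg, Egfr, Pgr, Gata3 and Foxa1 and in 32.7% of all windows. The palindromic oestrogen response element was in none of the 8 windows, of which 2 are of Esr1, and in 0.064% of all. A match is a description of the letters, not a binding site, and no match says nothing of the factor.

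Areg fell about 7-fold with 12-HETE. Its counts were 1537, 2705 and 1618 with vehicle and 271, 260 and 258 with 12-HETE. The groups were far apart, the 12-HETE libraries lay close together, and vehicle replicate 2 was the highest library. Normalised counts, scaled by the size factors of DESeq2, averaged 1921 ± 579 (SD, n = 3) and 263 ± 13.5 (SD, n = 3). The log2 fold change was -2.87 ± 0.20 (SE), a fold of 7.31, with an adjusted p of 4.23e-43 in the two-sided Wald test of DESeq2 over 11602 genes. Without vehicle replicate 2 it was -2.60, and every alternative kept the call. Per kb of exon, Areg stood between the 94.6th and 97.3rd percentile of the genes detected in each vehicle library and between the 68.5th and 70.4th percentile in each 12-HETE library.

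Calls required both an adjusted p below 0.05 and more than a 2-fold difference. Areg was the only one called of the 7 genes that reached a mean of 10 counts and were tested. Over all genes tested, 10.2% were called, 2.38% higher and 7.79% lower with 12-HETE. The number higher was 276, or 511 without vehicle replicate 3. The other 2 genes, Pgr and Gata3, were not tested because they had almost no counts.

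**Figure D1:**
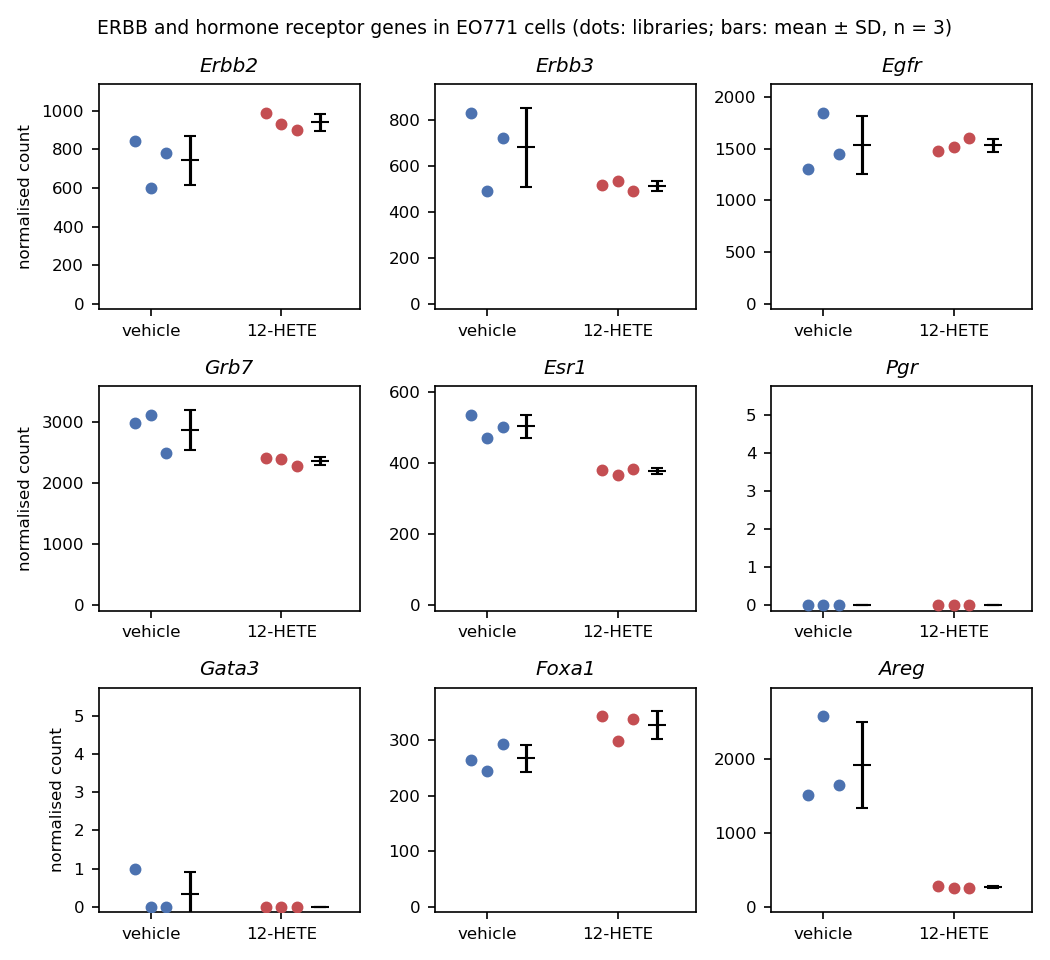
Normalised counts of the 9 genes in the 3 vehicle and 3 12-HETE libraries of EO771, with 1 dot for each library and the mean ± SD beside it. Areg fell from 1921 to 263, while the other 8 genes stayed within 2-fold or at 0 to 1 counts.

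Among the receptors, Erbb2 had 854, 630 and 765 counts with vehicle and 962, 945 and 915 with 12-HETE. No vehicle library reached the lowest 12-HETE library, and vehicle replicate 2 was the lowest of all. The difference was a log2 fold change of 0.34 ± 0.15 (SE), with an adjusted p of 0.0466, short of the fold of 2. It was 0.20 (adjusted p = 0.0906) without vehicle replicate 2, and the adjusted p lay between 0.112 and 0.199 without any 1 of the 12-HETE libraries. Erbb3 had 837, 514 and 702 counts with vehicle and 502, 541 and 497 with 12-HETE. Here vehicle replicate 2 lay among the 12-HETE libraries, and the log2 fold change of -0.41 ± 0.19 (SE) had an adjusted p of 0.0683. Without vehicle replicate 2 it was -0.60 (adjusted p = 1.4e-06) and without vehicle replicate 1 it was -0.24 (adjusted p = 0.343).

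Egfr had 1318, 1929 and 1413 counts with vehicle and 1434, 1539 and 1629 with 12-HETE. The groups overlapped, and vehicle replicate 2 was the highest library. The log2 fold change was -0.00061 ± 0.14 (SE; adjusted p = 0.998), with a 95% interval from -0.28 to 0.28, so that a fold of 2 in either direction lies outside it. Without vehicle replicate 2 the value was 0.15 (adjusted p = 0.195). The counts of Erbb2, Egfr and Erbb3 together, with Erbb4 at 0 in all 6 libraries, summed to 165 to 167 CPM in each vehicle library and to 163 to 164 CPM in each 12-HETE library. These sums are not scaled for exon length. Vehicle replicate 2 had the lowest Erbb2 and the highest Egfr of the 6 libraries.

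Grb7, which encodes an SH2 adaptor that docks on ERBB receptors, had 3025, 3270 and 2444 counts with vehicle and 2352, 2426 and 2326 with 12-HETE. After scaling, all vehicle libraries were above all 12-HETE libraries, at 2873 ± 328 against 2365 ± 67.0 normalised counts (SD, n = 3). The log2 fold change of -0.28 ± 0.11 (SE; adjusted p = 0.029) was far short of a fold of 2. The adjusted p was 0.13 without vehicle replicate 1 and 0.107 to 0.17 without any 1 of the 12-HETE libraries.

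Esr1 had 542, 492 and 491 counts with vehicle and 371, 372 and 390 with 12-HETE. The groups did not overlap, and both were tight. Its log2 fold change was -0.42 ± 0.12 (SE), with an adjusted p of 0.00186, which is a fold of 1.33 and below the fold threshold. Foxa1 had 267, 255 and 286 counts with vehicle and 334, 302 and 344 with 12-HETE, again without overlap, and its log2 fold change of 0.29 ± 0.15 (SE) had an adjusted p of 0.0886. Pgr had 0 counts in all 6 libraries, and Gata3 had 1 count in vehicle replicate 1 and 0 in the other 5. Both had fewer than 3 counts in every library, so EO771 showed Esr1 and Foxa1 transcripts, no counts of Pgr and at most 1 count of Gata3.

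By adjusted p alone, 4 of the 7 tested genes passed (Erbb2, Grb7, Esr1 and Areg), against 47% of all genes tested. Of these 4, Esr1 and Areg stayed under 0.05 whichever library was left out. Groups without overlap were seen for 5 of the 7 (these 4 and Foxa1), against 60.7% of all genes. Both shares are near the background of this comparison, so the small shifts of Erbb2, Grb7, Esr1 and Foxa1 are of a kind that many genes showed. The median log2 fold change was -0.28 over the 7 and 0.0012 over all genes tested.

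Compared per kb of exon, the order of mean levels in EO771 given vehicle, with the range over libraries, was Areg at 69.4 to 120 CPM per kb, Grb7 at 42.0 to 52.4, Erbb2 at 6.53 to 8.99, Egfr at 6.38 to 9.19, Erbb3 at 4.61 to 7.63, Foxa1 at 4.14 to 4.97 and Esr1 at 1.94 to 2.18. Areg, Grb7 and Esr1 each stood apart from their neighbours in this order, while Egfr, Erbb2 and Erbb3 overlapped, as did Erbb3 and Foxa1. With 12-HETE the order was Grb7 at 37.1 to 39.5 CPM per kb, Areg at 11.4 to 12.6, Erbb2 at 9.43 to 10.4, Egfr at 7.15 to 7.72, Foxa1 at 4.91 to 5.67, Erbb3 at 4.44 to 4.86 and Esr1 at 1.47 to 1.53. In each 12-HETE library Areg was 1.48 to 1.76 times Egfr per kb, against 10.7 to 13.1 times in each vehicle library.

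The ligands of the family did not all move with Areg. Of 11 ligand genes, 7 were tested, and 2 (Areg itself and Hbegf) fell while none rose by DESeq2 or edgeR (1 higher at an unadjusted p under 0.05). Over all genes tested, 7.79% were called lower. By adjusted p alone, 1 of the 7 was higher and 4 were lower, against 2637 and 2813 of all 11602 genes tested. Hbegf, which encodes heparin-binding EGF, had 4370, 4250 and 3781 counts with vehicle and 1486, 1682 and 1577 with 12-HETE. These groups did not overlap, and the log2 fold change was -1.37 ± 0.09 (SE; adjusted p = 2.24e-49). Tgfa, the gene of another EGFR ligand, went the other way without reaching a fold of 2, with 1871 to 2056 counts with vehicle and 2855 to 2923 with 12-HETE and a log2 fold change of 0.55 ± 0.10 (SE; adjusted p = 1.01e-07). Per kb, Areg was 1.40 to 2.53 times Hbegf in the vehicle libraries and 0.615 to 0.726 times Hbegf in the 12-HETE libraries. The median over the 7 ligands was -0.70, and Nrg3 was at 0 in all libraries.

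The other parts of the pathway were read from lists of known genes. Of 18 adaptor, RAS and sheddase genes tested, only Gab2 was called, from 19 to 38 counts down to 7 to 12, with a log2 fold change of -1.31 ± 0.52 (SE; adjusted p = 0.0276). The 2 with the highest levels, Shc1 (0.40 ± 0.09) and Ptpn11 (-0.19 ± 0.11, log2 fold change ± SE), were not called, and the list's median was 0.15. Of 14 negative regulators tested, 1 fell. Over all genes tested, 7.79% were called lower, so that 1 of 18 and 1 of 14 are both near the background. The negative regulator that fell was Errfi1, an inhibitor that binds the EGFR kinase and is itself induced by EGFR signalling. It had 9891, 8771 and 9419 counts with vehicle and 3570, 3823 and 3803 with 12-HETE. Its log2 fold change was -1.32 ± 0.09 (SE; adjusted p = 2.73e-42). Cbl, the ubiquitin ligase that marks EGFR for degradation, had a log2 fold change of 0.52 ± 0.17 (SE) and was not called, and the median of the list was -0.22. None of these 14 was called higher by DESeq2 or edgeR (2 at an unadjusted p under 0.05), and 1 was without vehicle replicate 3. By adjusted p alone, 2 of the 14 were higher and 7 lower, against 2637 and 2813 of all 11602 genes tested.

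The list with the most calls held genes that MAPK signalling is known to induce. Of 15 such genes tested, 7 fell and none rose by DESeq2 or edgeR, against the 7.79% of all genes called lower, with a list median of -0.99. At an unadjusted p under 0.05, 4 of the 15 were higher. By adjusted p alone, 4 were higher and 10 lower, against 2637 and 2813 of all 11602 genes tested. The transcription factor genes Egr1 (9626 ± 1585 to 1467 ± 57.7 normalised counts, SD, n = 3) and Myc (10654 ± 1031 to 1712 ± 34.9) fell, with log2 fold changes of -2.71 ± 0.14 and -2.64 ± 0.10 (SE). So did Fosl1, a subunit gene of AP-1 (-2.28 ± 0.13), and the phosphatase genes Dusp5 (-1.87 ± 0.09) and Dusp6 (-1.06 ± 0.09). Ier3 (-1.79 ± 0.11) and the feedback inhibitor gene Spry1 (-1.05 ± 0.14) were the other 2. Ccnd1, which encodes cyclin D1, had a log2 fold change of 0.41 ± 0.07 (SE) and was not called. Exons of Fosl1, Spry1, Ccnd1 and Dusp5 overlap a gene on the opposite strand over 57.2%, 24.4%, 23.4% and 22.1% of their length, and whether strand entered the counting is not stated. These lists were put together with earlier results of the same libraries known, so their counts describe these libraries and are not independent evidence.

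**Figure D2:**
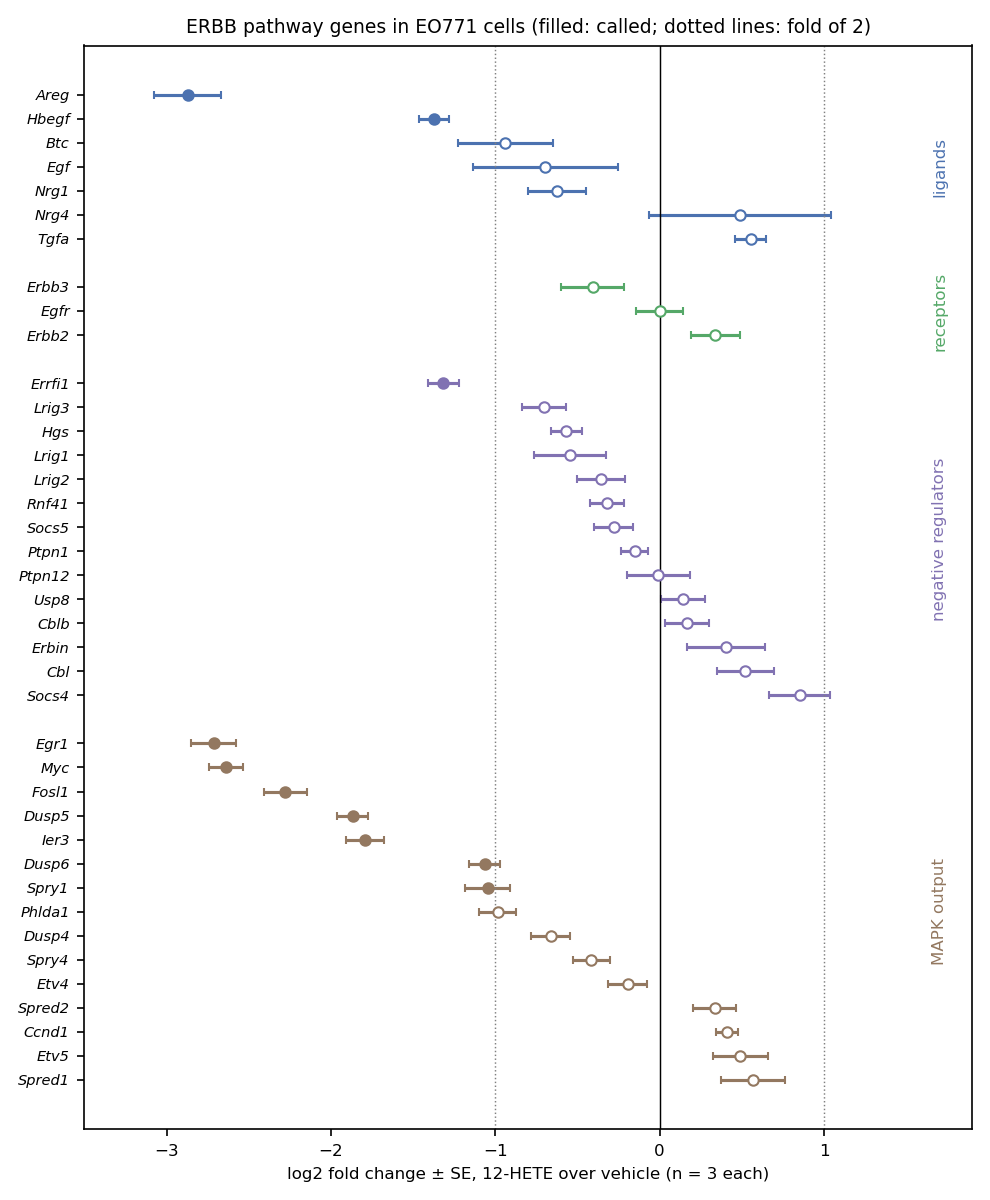
Log2 fold changes with 12-HETE over vehicle (± SE, 3 libraries each) of the tested ERBB ligand, receptor, negative regulator and MAPK output genes, with called genes filled and a fold of 2 dotted. Areg, Hbegf, Errfi1 and 7 MAPK output genes are called lower, and the 3 receptor genes lie between -0.41 and 0.34.

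On the hormone side, 6 of 13 steroid, orphan and prolactin family receptors were tested, and 1 fell (7.79% of all genes were called lower). It was Ghr, the growth hormone receptor gene, from 65 to 87 counts down to 10 to 21 (log2 fold change -2.37 ± 0.37 SE, adjusted p = 1.56e-09). Nr3c1, the glucocorticoid receptor gene, and Esrra were the highest of the list, at log2 fold changes of 0.29 ± 0.15 and -0.66 ± 0.15 (SE), and were not called. Esr2, like Pgr, had 0 counts in all 6 libraries. Of 9 known targets of the oestrogen receptor that could be tested, Areg alone was called, while Igfbp4 (0.60 ± 0.07) and Ccnd1 (0.41 ± 0.07, log2 fold change ± SE) were not, and the median was 0.10. None of 12 coregulator genes was called by DESeq2 or edgeR. At an unadjusted p under 0.05 there were 6 of the 12. By adjusted p alone, 4 were higher and 1 lower, while 47% of all genes tested passed in either direction. Ncoa3, which encodes a coactivator, was at 0.33 ± 0.16 (log2 fold change ± SE).

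Luminal genes beyond Gata3 and Foxa1 were present only in part. Of 25 luminal epithelial genes, 8 had at most 3 counts in every EO771 library, among them Gata3, and 15 were tested. Of these, 3 were called lower, against 7.79% of all genes tested. Grhl2, a regulator of epithelial junction genes, went from 319 to 434 counts down to 24 to 34 (log2 fold change -3.60 ± 0.26 SE). The others were Cldn4 (-2.48 ± 0.31) and Cdh1, the gene of E-cadherin, from 29 to 63 counts down to 3 to 16 (-1.95 ± 0.56). By adjusted p alone, 1 of the 15 was higher and 9 were lower, against 2637 and 2813 of all 11602 genes tested. Krt8 (-0.37 ± 0.11), Krt18 (-0.91 ± 0.12) and Epcam (-0.19 ± 0.21) were not called. None of 11 tested basal and mesenchymal genes was called by DESeq2 or edgeR. At an unadjusted p under 0.05 there were 7 of the 11. By adjusted p alone, 3 were higher and 4 lower, while 47% of all genes tested passed in either direction. The highest of the list were Fn1 (-0.41 ± 0.09) and Vim (-0.10 ± 0.10, log2 fold change ± SE). The luminal list summed to 3845 to 4898 CPM with vehicle and to 2706 to 2772 CPM with 12-HETE.

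Grb7 and Erbb2 are neighbours on chromosome 11, with starts 33.9 kb apart, in the block that is gained together in human ERBB2-amplified cancers. In EO771 they were not at like levels: Grb7 was 4.95 to 8.04 times Erbb2 per kb in the vehicle libraries and 3.79 to 3.97 times in the 12-HETE libraries. Mien1, which lies between them, had 21.1 CPM per kb or more in vehicle. Of 16 genes from Med1 to Med24 around Erbb2, 9 were tested and none was called by DESeq2 or edgeR. At an unadjusted p under 0.05 there were 4 of the 9. By adjusted p alone, 2 were higher and 2 lower, while 47% of all genes tested passed in either direction. Psmd3, the highest of the 16, which encodes a proteasome subunit, had a log2 fold change of 0.02 ± 0.08 (SE). In endothelial libraries Erbb2, Mien1, Stard3, Med24 and Psmd3 were all at 5.21 CPM per kb or more, while Grb7 was at or near 0, at a value of no more than 23 in any. Mien1 and Erbb2 share 9 bases of exon on opposite strands, 0.17% of Erbb2. Exons of Mien1 also overlap Gm12352 on the opposite strand over 37.6% of their length, and whether strand entered the counting is not stated.

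**Figure D3:**
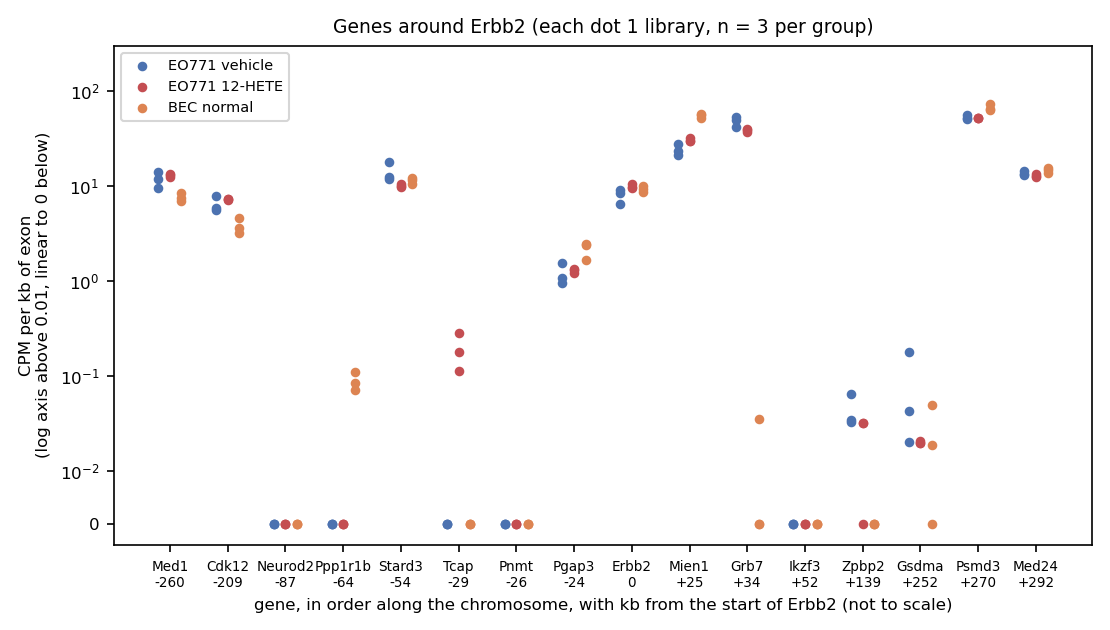
CPM per kb of exon of the 16 genes around Erbb2, in chromosomal order with the distance of their first base from the start of Erbb2 in kb, in each library of EO771 vehicle, EO771 12-HETE and BEC normal (log axis above 0.01). Grb7 is the gene that is high in EO771, at 37.1 CPM per kb or more, and at 0 to 0.0351 in BEC normal, while Erbb2 is at like levels in both.

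Likeness over libraries was measured by Pearson's r of log2 (normalised count + 1). Over the 6 EO771 libraries the genes most like Areg were Zfp319, Rassf1 and Foxo3, each with an r above 0.999, and 1359 genes had an r above 0.95. For Grb7 they were Ankrd37, Bsg and Eif3f, with an r of 0.996 or more. Over the 12 endothelial libraries those most like Erbb2, which is the highest of the 9 genes there, were Pip4k2b (r = 0.992), Tbc1d13 (0.989) and Ext2 (0.986). These libraries share their treatment groups, so such values describe a shared split.

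Levels across the 2 tables are set side by side only as a description, since the tables were counted and scaled separately. Erbb2 overlapped, at 6.53 to 10.4 CPM per kb in EO771 and 5.21 to 9.87 in the endothelial libraries. Erbb3 (4.44 to 7.63 against 0.0199 to 0.330), Egfr (6.38 to 9.19 against 0.0384 to 1.05), Esr1 (1.47 to 2.18 against 0.0822 to 0.376) and Areg (11.4 to 120 against 0 to 2.68) were higher in every EO771 library than in any endothelial one. Grb7 (37.1 to 52.4 against 0 to 0.117) and Foxa1 (4.14 to 5.67 against 0 to 0.0538) were near absent from endothelium. Gata3 had the opposite pattern, with at most 0.0138 CPM per kb in EO771 and 2.08 to 3.72 in endothelium, and Pgr had a value above 0 in 1 of the 18 libraries. Exons of Gata3 overlap Gm13256 and 9230102O04Rik over 3.9% and 1.94% of their length.

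**Figure D4:**
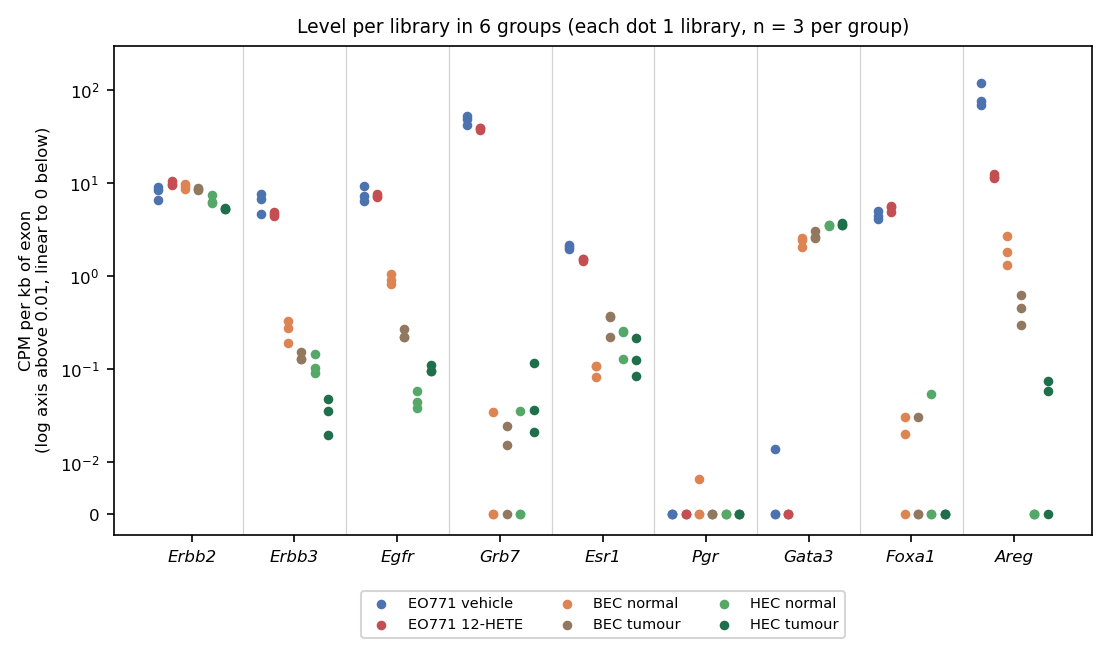
CPM per kb of exon of the 9 genes in all 18 libraries, 3 dots for each of 6 groups (log axis above 0.01, linear below). Erbb2 lies between 5.21 and 10.4 in all groups, Grb7 and Foxa1 are at 37.1 or more and 4.14 or more in EO771 and at most 0.117 and 0.0538 in endothelium, and Gata3 is at 2.08 to 3.72 in the endothelial libraries and at most 0.0138 in EO771.

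Of the 9 genes, 6 were tested in the endothelial libraries (not Grb7, Pgr or Foxa1), in 1 fit over all 12. The values there come in steps of about 3.7, so a single unit is not a single read. Between HEC normal and BEC normal 4 of the 6 were called, against 32.2% of all genes tested, between HEC tumour and BEC tumour 4 (21.9% of all), between HEC tumour and HEC normal 3 (7.8%, and 1 gene without HEC tumour replicate 2), and between BEC tumour and BEC normal 4 (23.3%). These comparisons share groups of libraries. Between HECs and BECs, cell type and tissue of origin cannot be told apart. BEC tumour and BEC normal also differ in tissue, tumour against fat pad. In any of these comparisons, fewer cells of a kind and less RNA per cell cannot be told apart either.

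Egfr was mainly a transcript of BEC normal. Its values were 919, 614 and 636 in BEC normal, 182, 244 and 195 in BEC tumour, 34, 45 and 31 in HEC normal and 62, 83 and 64 in HEC tumour. No library of any of the 4 groups overlapped another group. Egfr was lower in HEC normal than in BEC normal (log2 fold change -4.31 ± 0.23 SE, adjusted p = 1.29e-79) and lower in HEC tumour than in BEC tumour (-1.28 ± 0.21, adjusted p = 7.42e-09). With tumour it fell by 2.00 in BECs (adjusted p = 4.29e-25) and rose by 1.03 in HECs (adjusted p = 0.000152), the second call being lost without HEC normal replicate 1 (0.99), HEC normal replicate 3 (0.90) or HEC tumour replicate 2 (0.96). Fibroblast and pericyte markers summed to 262 to 276 CPM in BEC normal, 38.93 to 71.0 in BEC tumour, 22.9 to 24.9 in HEC normal and 11.2 to 11.8 in HEC tumour, and their part in these differences was not tested.

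Areg had values of 170, 94 and 223 in BEC normal, 26, 44 and 59 in BEC tumour, 0 in all HEC normal libraries and 4, 6 and 0 in HEC tumour. HEC normal was thus lower than BEC normal, whose mean of 162 normalised was 14.6 times a floor of 3 reads in each library, worth 11.1. This ratio is from the mean and is not a lower bound, since the lowest BEC normal library was at 111 normalised. HEC tumour was lower than BEC tumour with a log2 fold change of -3.40 ± 0.76 (SE; adjusted p = 2.55e-05, 95% interval -4.89 to -1.92). The size of that change rests on values of 1 or 2 steps in HEC tumour. With tumour Areg fell by 2.11 in BECs (± 0.61 SE, adjusted p = 0.00135). Its values in both HEC groups were too near 0 to give a fold, although the test called the difference (adjusted p = 0.00827), a call that was lost without HEC tumour replicate 2 and when values were divided by the step. Leukocyte markers summed to 1449 to 1925 CPM in BEC tumour and 108 to 129 CPM in BEC normal, BEC tumour replicate 3 held 2564 of Krt8 and 299 of Epcam, and the part of such cells in the Areg values was not tested. Replicate 3 was also the highest BEC tumour library for Areg, and the Areg call between BEC tumour and BEC normal held without it.

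Esr1 had values of 116, 87 and 77 in BEC normal, 219, 394 and 397 in BEC tumour, 229, 238 and 126 in HEC normal and 168, 112 and 68 in HEC tumour. BEC tumour stood above BEC normal without overlap, whereas the HEC groups overlapped. In BECs it rose with tumour by 1.64 ± 0.41 (log2 fold change ± SE, adjusted p = 0.000164), while in HECs the difference was -0.65 ± 0.41 (adjusted p = 0.22). The same BEC libraries differed in leukocyte markers, of which all 7 tested were called higher in BEC tumour, and in the fibroblast and pericyte markers given above for Egfr, and the part of such cells in the Esr1 values was not tested. Leukocyte markers summed to 484 to 509 CPM in HEC normal, against 108 to 129 in BEC normal. They summed to 356 to 374 CPM in HEC tumour, against 1449 to 1925 in BEC tumour, and their part was not tested here either. HEC normal had more Esr1 than BEC normal (1.07 ± 0.41, adjusted p = 0.015) and HEC tumour less than BEC tumour (-1.22 ± 0.40, adjusted p = 0.00595). The first of these calls was lost without BEC normal replicate 3 (0.94), HEC normal replicate 1 (0.95) or HEC normal replicate 2 (0.91) and the second without HEC tumour replicate 3 (-0.95), while the HEC difference was called without HEC tumour replicate 1 (-1.09).

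**Figure D5:**
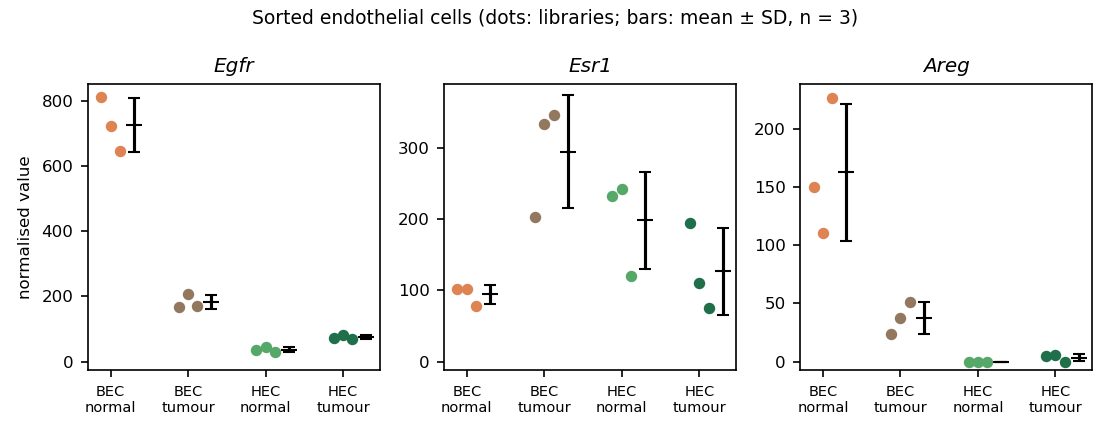
Normalised values of Egfr, Esr1 and Areg in the 4 endothelial groups, with 1 dot for each library and the mean ± SD (n = 3) beside it. Egfr is highest in BEC normal at 726 ± 82.2, Esr1 in BEC tumour at 294 ± 79.1 and Areg in BEC normal at 162 ± 59.0, and Areg is at 0 in HEC normal.

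Erbb3 was low in all endothelial libraries, with values of 69 to 136 in BEC normal, 60 to 67 in BEC tumour, 37 to 63 in HEC normal and 7 to 19 in HEC tumour. It was called lower in HECs than in BECs, normal (-1.25 ± 0.38 SE, adjusted p = 0.002) and tumour (-2.04 ± 0.44, adjusted p = 1.04e-05), and lower with tumour in HECs (-1.79 ± 0.44, adjusted p = 0.000266). In BECs it went from 111 ± 28.6 to 55.6 ± 5.64 (SD, n = 3; adjusted p = 0.0156), just past a fold of 2, and the call was lost under 12 of 21 alternatives, among them leaving out BEC normal replicate 1 (-0.99) or 3 (-0.83), BEC tumour replicate 2 (-0.96) or 3 (-0.96), or HEC tumour replicate 1 (-0.999). Erbb2 had 3047 to 3617 in the BEC libraries, 2219 to 2595 in HEC normal and 1579 to 1801 in HEC tumour. It was short of a fold of 2 in every comparison and so not called, the largest being -0.75 ± 0.09 (SE) between HEC tumour and BEC tumour. The adjusted p of the Wald test was still under 0.05 there (7.11e-15), between HEC normal and BEC normal (1.86e-07) and between HEC tumour and HEC normal (0.000112). Gata3, at 489 to 999 in every endothelial library, was not called either, with log2 fold changes between -0.03 and 0.55. By the adjusted p of the Wald test alone it was higher in HECs than in BECs, normal (1.36e-06) and tumour (0.00347).

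Whether tumour moved a gene unlike in the 2 cell types was tested as an interaction, the log2 change in HECs less that in BECs. Of the 6 genes, 3 were called (Egfr, Esr1 and Areg), against 23.2% of all genes tested. For Egfr the interaction was 3.03 ± 0.31 (SE, adjusted p = 1.87e-21) and for Esr1 -2.29 ± 0.57 (adjusted p = 0.000248). For Areg the adjusted p was 0.000107, but its size is not resolved with HEC normal at 0. Erbb2 (-0.25 ± 0.13), Erbb3 (-0.79 ± 0.58) and Gata3 (-0.20 ± 0.15) were not called. The 11 ligand genes together summed to 129 to 148 CPM in BEC normal, 116 to 123 in BEC tumour, 165 to 174 in HEC normal and 251 to 259 in HEC tumour.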

How the data were processed

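The authors aligned reads to GRCm38 with STAR and counted with featureCounts. For EO771, the methods name removal of duplicates in the RNA editing analysis, and whether it came before these counts is not clear from them. The deposited EO771 values are raw counts by symbol. The deposited endothelial values, by Ensembl identifier, are whole numbers and were read as estimated counts made by the authors, because low values pile up in steps of 3.67 to 3.72. The methods name a directional kit for EO771 where the labels name another, and strand use in counting is not given in the sources used here. Endothelial totals were 56.4 M to 79.4 M per library (15.2 M to 21.4 M after dividing by the step).

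DESeq2 1.42.0 (R 4.3.3; Wald test, Benjamini-Hochberg) was run on genes with a mean of at least 10 (11602 in EO771, 18511 in endothelium), with group as the only term, and tested on simulated data. Called means an adjusted p under 0.05 and a fold over 2. edgeR 4.0.16, other scalings, filters and thresholds, a replicate block and leaving out each library were alternatives. An exact permutation test of 3 against 3 libraries cannot give a two-sided p under 0.1. CPM per kb used exon lengths of GENCODE vM21. Promoter windows, found for 7 of the 9 genes, were RefSeq's. The 9 genes and all lists were chosen with earlier results of these data known. Named from each list were called genes (at most the 6 with the largest Wald statistics), the 2 highest in EO771, and Epcam, Krt8, Krt18, Pecam1, Cdh5 and Ptprc; for Areg, Grb7 and Erbb2, the 3 genes most like them. Spry1, Nrg3, Erbb4, Dcn, Pdgfra, Cd68, Cd3e, Med1, Mien1, Stard3, Med24 and Esr2 were named after their values were seen. Some items this rule would name are not reported here.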

Additional observations from a re-analysis of the deposited data

Results flagged for a closer look

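The difference between tumour and normal libraries was unlike in HECs and BECs for 3 of the 6 tested genes, against 23.2% of all genes tested. The test was the interaction test of DESeq2 over 12 libraries. In BECs the tumour and normal libraries also differ in tissue, tumour against fat pad. Egfr fell in BECs and rose in HECs, an interaction of 3.03 on the log2 scale. Esr1 rose in BECs and had a value below 0 in HECs, an interaction of -2.29. Areg fell in BECs and went from 0 to at most 6 in HECs, an interaction of 6.39 whose size depends on how the software treats a group at 0. Leukocyte markers rose in BEC tumour (1449 to 1925 CPM, against 108 to 129 in BEC normal) and fibroblast and pericyte markers were lower there (38.93 to 71.0 against 262 to 276 CPM), and their part in these differences was not tested. The Egfr and Areg calls held under all 20 alternatives, and the Esr1 call under 19.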

How the results depend on the processing

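Of 714 values for single genes under alternatives, 667 kept their direction and side of the threshold, 32 lost the call, 9 gained it and 6 changed sign. The Areg call in EO771 held under all 13, with log2 fold changes from -3.02 to -2.60 and adjusted p from 2.48e-115 to 3.8e-05 (the highest from edgeR). Those that changed sign were not called: Egfr in EO771, at -0.00061 otherwise, with no filter (0.0065), with a replicate block (0.013) and on leaving out vehicle replicate 2 (0.15), 12-HETE replicate 1 (0.030) or 12-HETE replicate 2 (0.0096), its range over all leave-outs being -0.11 to 0.15, and Gata3 in HECs under scaling by library totals (0.044).

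With no fold threshold, 4 of the 9 genes passed in EO771. Ligands were then 1 higher and 4 lower, negative regulators 2 higher and 7 lower, MAPK output genes 4 higher and 10 lower, and all genes 2637 higher and 2813 lower. When the test was made against a log2 fold change of 1, 20 genes were higher and 391 lower in EO771, and among the 9 genes 2 were called between HEC normal and BEC normal, 1 between HEC tumour and BEC tumour, 0 between HEC tumour and HEC normal and 1 between BEC tumour and BEC normal. Leaving out 1 library gave 226 to 511 genes higher (511 without vehicle replicate 3, against 276), 0 to 1 negative regulators higher, and 1 to 4 of the 9 genes called between HEC tumour and HEC normal (1 without HEC tumour replicate 2).

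Replicate numbers were not taken as pairs in the main fit. Same-numbered EO771 libraries of the 2 groups correlated at 0.025 to 0.154, and those of unlike number at -0.114 to 0.033. Same-numbered endothelial libraries correlated at -0.015 to 0.053, and those of unlike number at -0.057 to 0.032. Of the libraries, 5 of 6 and 9 of 12 correlated best with one of their own number. Whether numbers mark pairs was not tested. With the replicate block, Areg in EO771 was -2.83 and 1 of the 9 genes was called, as without it, and Erbb3 between BEC tumour and BEC normal, at -0.99, was no longer called. The limits are 3 libraries a group, a spread between vehicle libraries well above that with 12-HETE, and endothelial values near their step of 3.7 for Areg and Erbb3 in HECs. The causes of these shifts were not tested.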
